A study of Homo sapiens with 6 samples.

Results

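Reelin, its lipoprotein receptors and the adaptor proteins that bind them were followed in Huh7, a human cell line established from a hepatocellular carcinoma. The 6 genes were chosen by name: the secreted ligand RELN, the receptors VLDLR, LRP8 and LRP1, and the adaptors DAB1 and DAB2. They were taken by the gene symbol of the platform annotation, which assigned them 18 probe sets, and they are 6 of the 18132 genes measured. RELN and VLDLR had already been seen to differ between the groups when the genes were chosen. The differences of the members are therefore given as a description and carry no test of their own.

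The series has 2 groups of 3 arrays, control Huh7 cells and Huh7 cells labelled as silenced for KCa3.1, a calcium-activated potassium channel encoded by KCNN4. The labels call the second genotype a knockdown. They give neither the silencing agent nor its duration, nor whether the line was cloned. All cells were in logarithmic growth in 5% CO2, and the labels do not say whether replicates were grown as separate cultures. The p-values given for other genes below thus rest on the spread among these 6 arrays, part of which may be technical.

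Reelin is a large secreted glycoprotein that binds VLDLR and LRP8 (also called apolipoprotein E receptor 2) on the surface of a cell. Binding leads Src family kinases, mainly FYN, to phosphorylate the adaptor DAB1 at the receptors' cytoplasmic tails, a pathway best known for placing neurons in the developing brain. DAB2 binds the same kind of tail motif and brings receptors into clathrin-coated pits, and LRP1 is a large endocytic receptor of hepatocytes that clears lipoprotein remnants and protease complexes. In the liver, reelin is known mainly as a product of stellate cells, and VLDLR is known as a receptor that is scarce in healthy hepatocytes and rises in fatty or stressed liver.

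The sequences upstream of RELN and VLDLR, the members with the largest higher and the largest lower value in the silenced-labelled arrays, are shown because both genes are described as controlled at their promoters. Each is the 250 bases before the annotated start, 5′ to 3′ in the direction of the gene, from RefSeq on GRCh38.p14, at chr7:103989659-103989908 on the minus strand for RELN and chr9:2621537-2621786 on the plus strand for VLDLR. Capitals mark GC boxes, the motif GGGCGG on either strand, to which the factor SP1 binds.
RELN: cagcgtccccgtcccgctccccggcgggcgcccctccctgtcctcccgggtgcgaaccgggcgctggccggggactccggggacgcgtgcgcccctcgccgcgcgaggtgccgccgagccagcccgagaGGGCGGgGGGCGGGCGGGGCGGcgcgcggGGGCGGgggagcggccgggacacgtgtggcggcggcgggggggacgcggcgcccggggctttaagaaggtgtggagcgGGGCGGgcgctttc
VLDLR: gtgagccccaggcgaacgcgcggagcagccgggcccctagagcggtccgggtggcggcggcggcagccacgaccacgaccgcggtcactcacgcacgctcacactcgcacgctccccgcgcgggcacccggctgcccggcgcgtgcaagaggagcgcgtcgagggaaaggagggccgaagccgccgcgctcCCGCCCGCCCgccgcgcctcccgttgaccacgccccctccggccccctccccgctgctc

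The RELN window held 6 GC boxes and the VLDLR window 2, some of which overlap one another. At least 4 GC boxes were present in 7.63% of the 35116 windows of this length in the table, and at least 2 in 24.3%. The GC content was 83.2% for RELN and 78.8% for VLDLR, against a median of 58% over all windows. The E-box CACGTG occurred 1 time in the RELN window and in 6.34% of all windows. In the RELN window it also holds both matches to ACGTG, a form of the hypoxia response element core. The VLDLR window held 0 matches to ACGTG, which occurred in 18.5% of all windows. The other form of that core, GCGTG, was not counted, and its letters do occur in the RELN window and in the VLDLR window. The ATF4 element TGATGNAA, present in 3.14% of all windows, was in none (0) of the 11 windows of the 6 members, which include 6 alternative starts of DAB1. These matches describe letters in a window and say nothing about binding in these cells.

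The target of the silencing was examined before the members. KCNN4 stood at -0.006, 0.126 and -0.073 in the controls, and its values in the arrays labelled silenced were -0.055, 0.089 and 0.011. Its group means were 0.016 ± 0.101 and 0.015 ± 0.072 (SD, n = 3 each), with a 95% interval of the difference from -0.157 to 0.156 (limma adjusted p = 0.999). All 3 KCNN4 probe sets are of the less specific _x_at kind, whose probes can match other transcripts, so no more specific probe set was there to check the target. On these probe sets the targeted transcript did not bear out the label, and every direction below is between arrays as labelled. Values are on the log2 scale of RMA, the authors' array summary, with each probe set set relative to a baseline of its own. The strength of expression of a gene is therefore unknown, and levels of different genes cannot be set against each other. How the baseline was set is not stated, so a group's place above or below it does not show which group moved.

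RELN was higher in all 3 silenced-labelled arrays than in any control array, and it was the largest difference among the members. Its values, averaged over 4 probe sets, were -1.646, -1.585 and -1.468 in controls, against 0.316, 0.269 and 0.222 under the silenced label. The controls lay far below the baseline of the probe sets and the silenced-labelled arrays just above it, with no overlap. The difference, silenced minus control, was 1.84 (SE 0.063, 95% interval 1.69 to 1.98), a 3.57-fold higher value. It was the 8th largest rise among the 18132 genes. Without any 1 array the difference lay between 1.80 and 1.88.

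All 4 RELN probe sets were higher in the silenced-labelled arrays, by unequal amounts. Probe set 11749502_a_at stood at -2.14, -1.937 and -1.965 in the controls and at 0.267, 0.123 and 0.262 in the silenced-labelled arrays, a difference of 2.23. Probe set 11758526_s_at differed by 2.17 and 11749504_x_at by 1.83. Probe set 11749503_s_at stood at -0.75, -0.812 and -0.688 against 0.354, 0.45 and 0.276, a difference of 1.11. Its 95% interval, 0.947 to 1.27, did not reach those of the other RELN probe sets, the lowest of which began at 1.54.

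**Figure D1:**
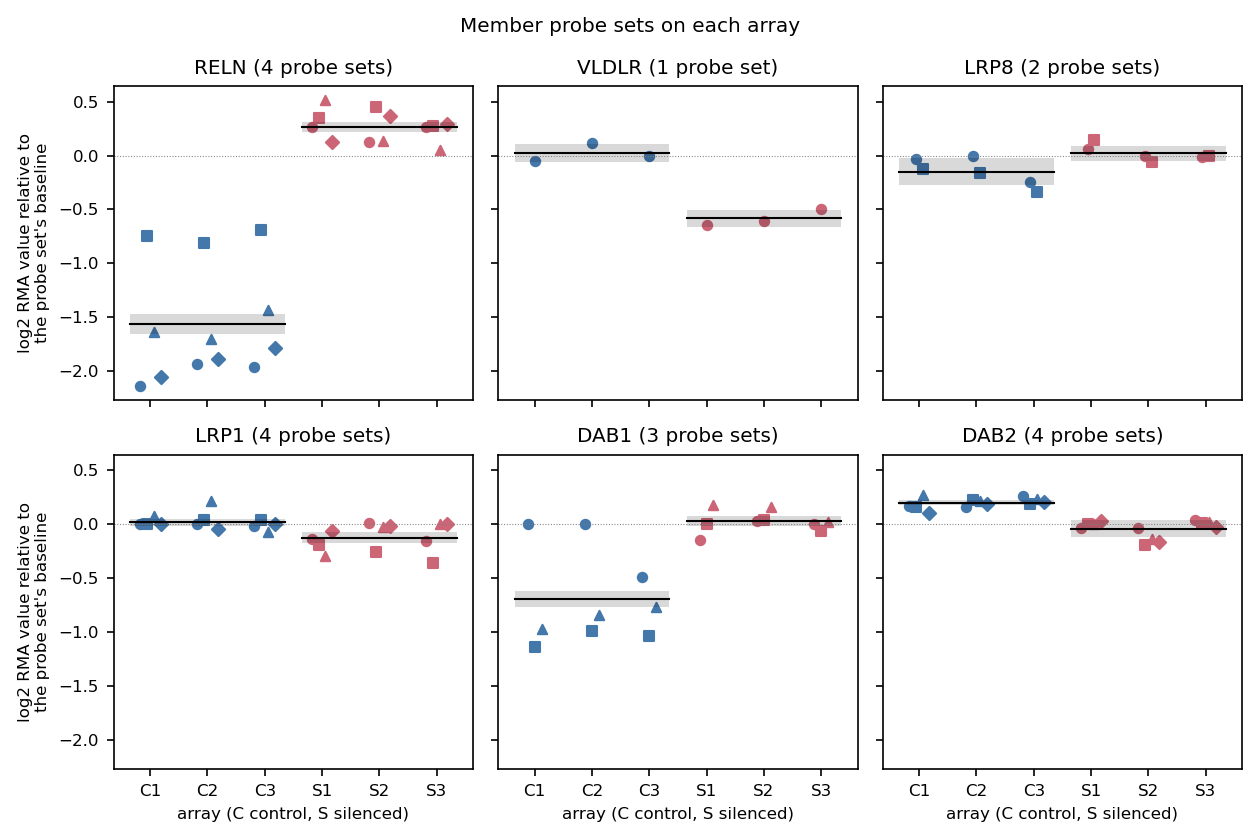
Values of the 18 probe sets of the 6 genes on each array, on the log2 scale of RMA, set against the baseline of the probe set (control arrays C1 to C3 in blue, silenced-labelled arrays S1 to S3 in red). Marker shapes are the probe sets of a gene, the black line is the group mean of the gene and the band its SD (n = 3). The control means of RELN and DAB1, -1.57 and -0.694, lie below the baseline, while for VLDLR the silenced-labelled mean, -0.583, does.

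Of the receptors, VLDLR was lower in the silenced-labelled arrays, while LRP8 and LRP1 differed by little. VLDLR binds reelin and also takes up triglyceride-rich lipoproteins. It was measured by 1 probe set, which stood at -0.048, 0.113 and 0 in the controls and at -0.646, -0.605 and -0.497 in the silenced-labelled arrays. The controls lay around the baseline and every silenced-labelled array lay well below it. The difference was -0.60 (SE 0.066, 95% interval -0.754 to -0.454), a 1.52-fold lower value, and it lay between -0.647 and -0.559 without any 1 array.

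LRP8, the other signalling receptor of reelin, had values of -0.076, -0.08 and -0.294 in the controls against 0.102, -0.032 and -0.006 in the silenced-labelled arrays. The groups did not overlap, but the gap between the nearest arrays was narrower than the range within the controls, where control replicate 3 lay lowest. The difference was 0.17 (SE 0.075, 95% interval 0.002 to 0.341), which is not past the threshold used here, an adjusted p under 0.05 in limma over all genes. Without control replicate 3 it was 0.10. Its probe set 11741376_a_at differed by 0.24 and 11728896_a_at by 0.11, with overlapping arrays in the second.

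LRP1, which shares ligands and adaptors with the reelin receptors, had values of 0.02, 0.052 and -0.012 in the controls and -0.17, -0.072 and -0.127 in the silenced-labelled arrays. Its difference of -0.14 (SE 0.054, 95% interval -0.267 to -0.02) was not past the threshold. The 4 LRP1 probe sets did not move equally. Probe set 11715534_a_at stood at 0, 0.04 and 0.043 in the controls and at -0.189, -0.257 and -0.356 in the silenced-labelled arrays, a difference of -0.295 that was past the threshold over all probe sets. That call was lost without control replicate 2 or 3 (-0.289 and -0.288) and without silenced replicate 2 or 3 (-0.3 and -0.251). The other 3 differed by -0.179, -0.087 and -0.013, with overlapping groups in each. With the most variable probe set in place of the mean, LRP1 was past the threshold at -0.295.

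Of the adaptors, DAB1 was higher and DAB2 slightly lower in the silenced-labelled arrays. DAB1 carries the reelin signal from the receptor tails to kinases of the cytoplasm. Its values over 3 probe sets were -0.702, -0.613 and -0.767 in the controls and 0.012, 0.079 and -0.011 in the silenced-labelled arrays. As for RELN, the controls lay below the baseline and the silenced-labelled arrays close to it, without overlap. The difference was 0.72 (SE 0.061, 95% interval 0.583 to 0.858), a 1.65-fold higher value, and it ranked 153rd among the rises of all genes.

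The DAB1 probe sets fell into a concordant pair and a single one apart from them. Probe set 11759050_at stood at -1.137, -0.992 and -1.041 in the controls against 0, 0.042 and -0.059, and 11762430_a_at at -0.969, -0.845 and -0.767 against 0.18, 0.165 and 0.026. Their differences were 1.05 and 0.984. Probe set 11731025_a_at stood at 0, 0 and -0.493 in the controls and at -0.145, 0.03 and 0 in the silenced-labelled arrays, a difference of 0.13 with a 95% interval from -0.177 to 0.43. It held an exact 0 on 3 of the 6 arrays, and its groups overlapped. Without it the DAB1 difference was 1.02. Which transcripts of DAB1 each probe set detects was not analysed here.

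DAB2 acts in endocytosis and binds the tails of the same receptors. It stood at 0.176, 0.199 and 0.222 in the controls and at 0.001, -0.134 and 0.011 in the silenced-labelled arrays, a difference of -0.24 (SE 0.059, 95% interval -0.375 to -0.106). The controls were close together, and the silenced-labelled arrays all lay below them, with silenced replicate 2 the lowest. All 4 probe sets had groups that did not overlap, with differences between -0.282 and -0.208, and 1 of them was past the threshold. The call of the gene was lost without control replicate 2 or 3 (-0.24 and -0.228) and without silenced replicate 1, 2 or 3 (-0.261, -0.193 and -0.266), and also with the most variable probe set in place of the mean (-0.282). That of the probe set was lost without any 1 of the 6 arrays.

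**Figure D2:**
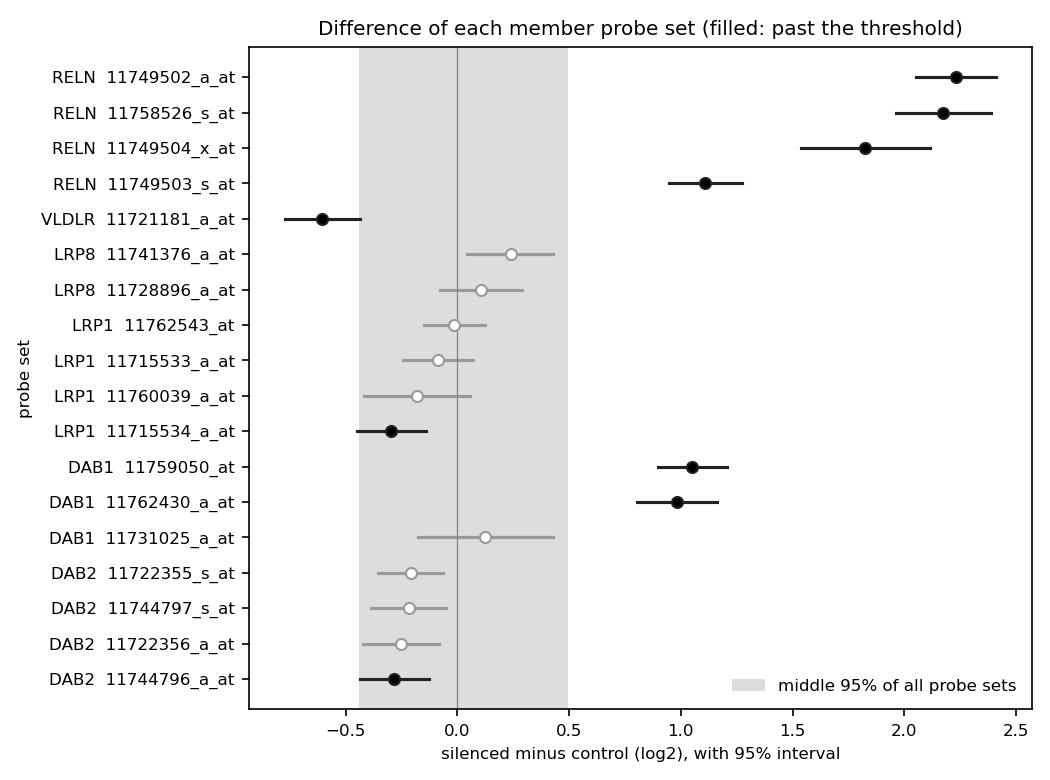
Difference between silenced-labelled and control arrays for each of the 18 probe sets on the log2 scale, with its 95% interval (n = 3 arrays per group). Filled points are past the threshold over all probe sets, and the grey band spans the middle 95% of all 49293 probe sets, from -0.442 to 0.497. The 4 RELN probe sets, the DAB1 pair at 1.05 and 0.984 and the VLDLR probe set at -0.604 lie outside the band.

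In all, 4 of the 6 members were past the threshold, RELN and DAB1 higher and VLDLR and DAB2 lower, in a comparison in which 13.3% of all genes were. Of those 13.3%, 7.14% of all genes were higher and 6.19% lower. All 6 members had groups that did not overlap, as did 29.3% of all genes. By probe set, 9 of 18 were past the threshold, 6 higher and 3 lower, where 10.7% of all probe sets were, 5.82% higher and 4.85% lower. The groups of 13 of the 18 did not overlap, as for 26.7% of all probe sets. Since the members were chosen with this contrast known, these counts are not evidence about them. The median size of a difference over all genes was 0.079. RELN, DAB1 and VLDLR lay far beyond it, and LRP1 and LRP8 were nearer to it.

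**Figure D3:**
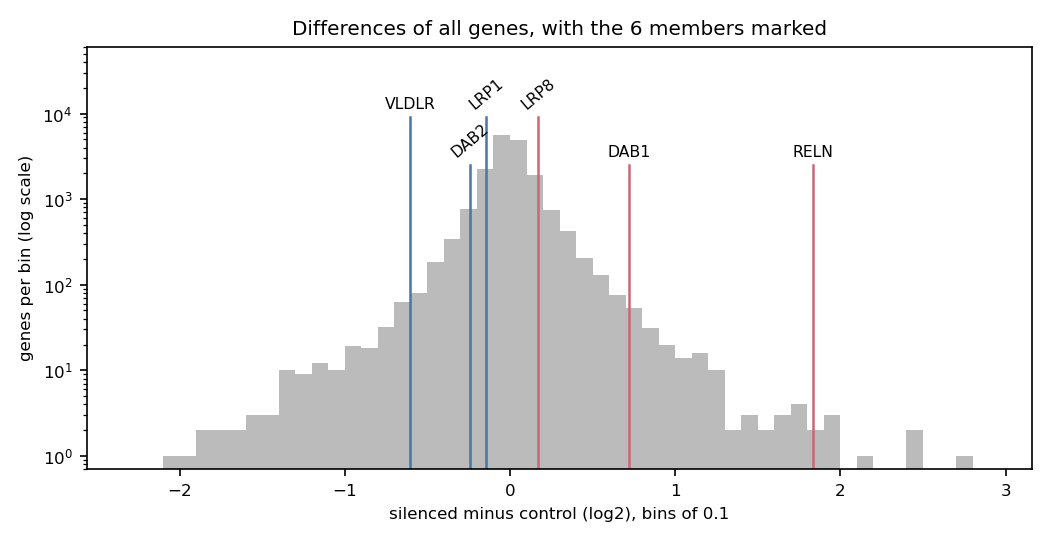
Distribution of the differences between silenced-labelled and control arrays over all 18132 genes, in bins of 0.1 on the log2 scale with a log axis for the number of genes, and the 6 members marked by lines. RELN at 1.84 lies in the sparse right tail, DAB1 at 0.72 and VLDLR at -0.60 on the flanks, and LRP8, LRP1 and DAB2 in the dense centre.

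Genes around the members were read from 10 lists of the reelin pathway and of the lipoprotein receptor family. Together they held 127 measured genes, of which 29 passed the test, 17 higher and 12 lower, and 98 did not (limma, adjusted p under 0.05). The share that passed, 22.8%, stands beside 13.3% of all genes. The median difference was -0.003, close to the -0.006 of all genes. No test was made of any list as a whole.

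The main kinase that phosphorylates DAB1, FYN, was among the genes that rose, while the Src family genes SRC (0.031) and YES1 (0.115) did not pass. FYN, measured by 1 probe set, stood at -1.096, -1.114 and -1.223 in the controls and at 0, -0.076 and 0.015 in the silenced-labelled arrays. It was 2.18-fold higher (log2 difference 1.12, SE 0.059, limma adjusted p = 9.5e-06), with a difference between 1.08 and 1.15 without any 1 array. As for RELN and DAB1, the controls lay below the baseline and the silenced-labelled arrays beside it. Of the 24 measured genes of DAB1 signalling, 6 were past the threshold and all 6 were higher, while 18 did not pass. At an unadjusted p under 0.05 there were 6 higher and 4 lower, and the list median was -0.008.

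The other 5 were named after their values were seen. CDK5R1, the activator of the kinase CDK5, rose by 0.55 (limma adjusted p = 0.0097), and WASL, which promotes actin branching, rose by 0.33 (limma adjusted p = 0.011). CDK5R1 had 1 probe set, of the less specific _s_at kind. PIK3R1, a regulatory subunit of phosphoinositide 3-kinase, rose by 0.33, a call that 4 of the 6 arrays decide, as it went when control replicate 1 or 2 or silenced replicate 1 or 2 was left out (0.25 to 0.34). GSK3B, a kinase that is inhibited downstream, rose by 0.23, a call that did not hold without control replicate 2 or silenced replicate 1 or 3 (0.22 to 0.23). Both probe sets of GSK3B are also of the _s_at kind. The call of AKT1, a kinase that acts on GSK3B, was lost without any 1 of the 6 arrays (0.18 to 0.22, with 0.21 on all arrays), and its difference was 0.13 without _s_at and _x_at probe sets. The DAB1 turnover list, parts of the ubiquitin ligase that removes phosphorylated DAB1, had 0 of 7 genes past the threshold in limma and 1 at an unadjusted p under 0.05.

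Reelin is cut by secreted proteases, and 2 of 8 measured genes of that list changed, in opposite directions. MEP1A, which encodes the alpha subunit of the metalloprotease meprin, stood at -0.934, -0.72 and -1.092 in the controls and at 0.08, 0.073 and 0.13 in the silenced-labelled arrays. It was 2.01-fold higher (log2 difference 1.01, SE 0.089, limma adjusted p = 0.00014). Its 2 probe sets differed by 1.29 and 0.732. PLAT, the tissue plasminogen activator gene, fell by 0.32 (SE 0.067, limma adjusted p = 0.013), but 1 of its 7 probe sets was higher, and the call was lost without the less specific _s_at and _x_at probe sets (-0.236).

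Among genes of other surface proteins linked to reelin, and of a protein that binds some of them, 3 of 11 measured fell and 1 rose. NECTIN3, a cell adhesion molecule, fell by 0.45 (SE 0.091, limma adjusted p = 0.012). AFDN, which encodes the nectin-binding protein afadin, had a difference of 0.23 (limma adjusted p = 0.028). Its call was lost without any 1 control replicate and without silenced replicate 1 or 3 (0.20 to 0.24), and the difference was 0.068 without _s_at and _x_at probe sets. The integrin subunit gene ITGB1 fell by 0.37 and the N-cadherin gene CDH2 by 0.29, both named after their values were seen. Neither was called on specific probe sets only, which leaves out the _a_at kind too, where they stood at 0.008 and -0.261. When only _s_at and _x_at probe sets were left out, ITGB1 (-0.345) and CDH2 (-0.289) kept their calls.

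In the lipoprotein receptor family, LRP4 rose and LRP12 fell, and the other 9 of 11 measured genes did not pass. LRP4, a receptor best known at the neuromuscular junction, stood at -0.821, -0.553 and -0.684 in the controls and at 0.166, 0 and -0.106 in the silenced-labelled arrays. Its difference was 0.71 (SE 0.089, limma adjusted p = 0.00099), from 1 probe set. LRP12 stood at 0.327, 0.222 and 0.242 against -0.318, -0.47 and -0.422, a difference of -0.67 (SE 0.062, limma adjusted p = 0.00018), with all 3 probe sets past the threshold.

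Of 8 measured genes of receptor folding and turnover, 2 were higher, GULP1 and MYLIP, and 6 did not pass. GULP1, an adaptor of LRP1 in engulfment, rose by 0.52 (SE 0.101, limma adjusted p = 0.0088). MYLIP, named after its value was seen, encodes the ubiquitin ligase that marks VLDLR and LRP8 for degradation. It stood at -0.551, -0.297 and -0.266 in the controls and at 0.021, 0.174 and 0.125 in the silenced-labelled arrays, a difference of 0.48 (SE 0.084, limma adjusted p = 0.0056). Its 3 probe sets differed by 0.798, 0.511 and 0.125, and the call was lost with their median in place of the mean (0.487) and without _s_at and _x_at probe sets (0.318). Of 9 genes of receptor shedding, 2 fell, both subunits of gamma-secretase: APH1B by 0.39 (SE 0.061, limma adjusted p = 0.003) and APH1A, named after its value was seen, by 0.37.

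**Figure D4:**
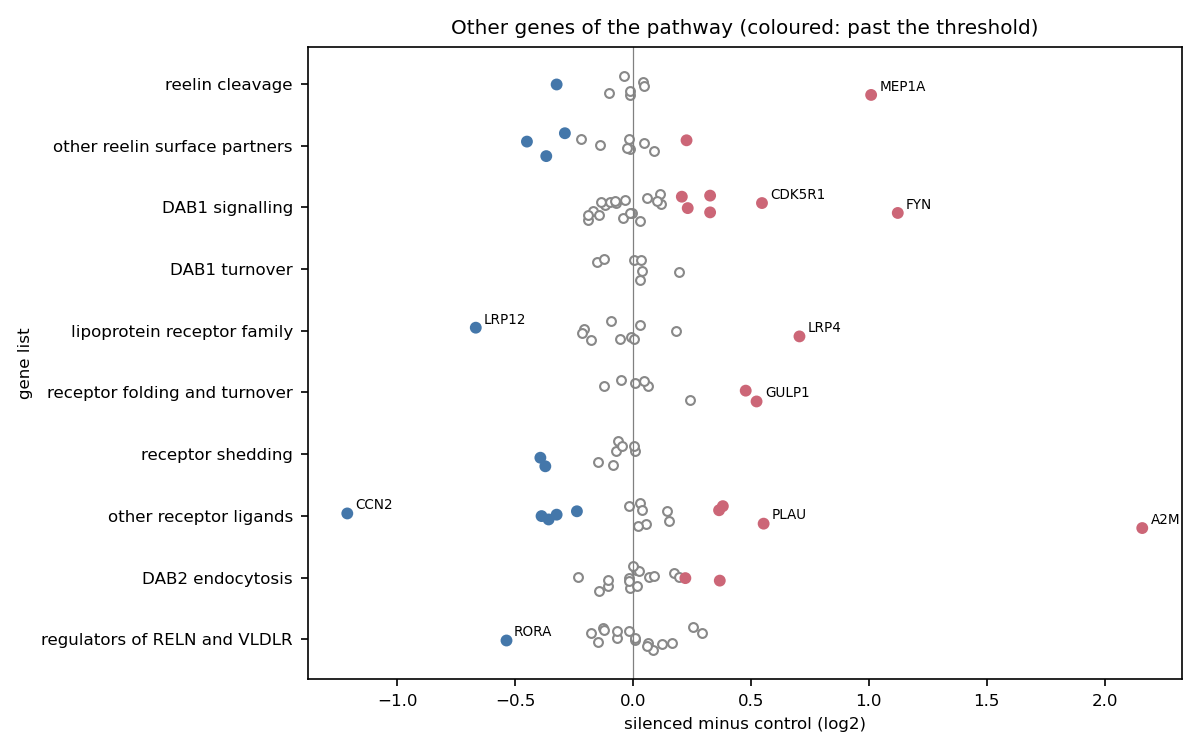
Differences between silenced-labelled and control arrays on the log2 scale for each measured gene of the 10 lists, with red for genes past the threshold and higher, blue for those past it and lower, and open points for the rest (vertical scatter within a list has no meaning). Most points lie near 0, and FYN at 1.12, MEP1A at 1.01, A2M at 2.16 and CCN2 at -1.21 stand farthest out.

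The genes whose pattern over the 6 arrays lay closest to that of RELN were SPP1, BTF3L4 and CTSE. Likeness was measured as the Euclidean distance between profiles centred on their own means, which was 0.11 for SPP1, 0.181 for BTF3L4 and 0.186 for CTSE, with correlations of 0.999, 0.997 and 0.997 over 6 arrays. SPP1 encodes the secreted matrix protein osteopontin and CTSE the protease cathepsin E. For VLDLR the closest were ENO3, a muscle-type enolase gene, TMEM45B and TIMP1, an inhibitor of metalloproteases, at distances of 0.054, 0.064 and 0.08 and correlations of 0.998, 0.996 and 0.995. The profiles of TMEM45B and TIMP1 are means over unlike probe sets. Those of TMEM45B differed by -0.956 and -0.246, and those of TIMP1 by -0.827, -1.016 and 0.111. The probe sets of ENO3 were closer together, at -0.53, -0.6 and -0.643. With 2 groups of 3 arrays, such a correlation mainly reflects the step between the groups.

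Markers of other cell types were read in the same comparison, since reelin is made by stellate cells and by neurons. Of 10 markers of stellate cells or fibroblasts 1 was past the threshold, COL1A2, which rose by 0.55, and the list median was -0.002. Of 6 neural markers TUBB3 rose by 0.59 and GAD1 fell by 0.44. Of 7 endothelial markers 0 passed in limma, with 1 at an unadjusted p under 0.05, and of 6 leukocyte markers 1 passed, LYZ, which rose by 0.34. Of 8 hepatocyte markers 4 were higher, among them APOA1, which rose by 1.14, and the list median was 0.183. ALB, TTR and AHSG did not pass (0.155, 0.056 and 0.169), nor did TF, which was lower (-0.192). These markers were named after their values were seen. Their part in the differences of the members was not tested. The values carry no level, so the cell type could not be checked by the presence or absence of a marker. In bulk RNA, fewer cells of a type and less RNA per cell cannot be told apart.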

How the data were processed

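The deposited table holds log2 values on 6 one-colour arrays made by the authors with RMA, per the submitters' processing notes (no version given). The log base is RMA's usual one, and the values are relative to a baseline of each probe set, so they carry no level. How that baseline was set is not stated. It was not the middle of these 6 arrays for every gene. The control and silenced-labelled means were -1.566 and 0.269 for RELN, and 0.005 and 1.916 for CTSE. Of 49395 probe sets, 102 controls were left out. The platform annotation pairs 44988 of the remaining 49293 with 1 gene symbol, 1832 with several and 2473 with none here. Probe sets with 1 symbol were averaged per gene.

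Differences were fitted with limma 3.58.1 in R 4.3.3 (lmFit, eBayes), with group as the only term and all 6 arrays, adjusted by the Benjamini-Hochberg method over all genes or all probe sets, and called at an adjusted p under 0.05. The script was tested on simulated data. Intervals are 95% intervals of that fit. The number of arrays, 3 per group, limits the precision. Over all probe sets, r between arrays was 0.406 to 0.67 within a group and -0.273 to 0.068 across groups. These were computed on the baseline-relative values, so they cannot be set beside correlations of values that keep the probe set levels.

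The members and the lists were chosen with earlier results of these data known. Genes outside the members were named by a rule: KCNN4, the largest rise and the largest fall past the threshold in each list, and the 3 genes nearest in profile to RELN and to VLDLR. Of 142 list genes 127 were measured, and the others are not analysed here. Alternatives left out each array, used a replicate block, other summaries or subsets of probe sets, quantile normalization, median centring and robust eBayes.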

Additional observations from a re-analysis of the deposited data

How the results depend on the processing

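The differences of the 6 members kept their direction under every alternative that could be run for them. With specific probe sets only, which left 8354 genes, 2 members (DAB1 and LRP1) and 51 list genes, 565 genes, 736 probe sets, 1 member and 2 list genes were past the threshold. That alternative leaves out _a_at probe sets as well as _s_at and _x_at ones. Under it ITGB1 was at 0.008, reversed in sign and not called. Without _s_at and _x_at probe sets, an alternative chosen after seeing the data, 3342 probe sets were called. Leaving out 1 array gave 3252 to 4592 changed probe sets, 1641 to 2289 changed genes, 3 to 4 members and 23 to 29 list genes.

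RELN differed by 2.23 with the most variable probe set and without _s_at and _x_at probe sets, by 2.03 with the median of probe sets and by 1.75 after quantile normalization. DAB1 differed by 1.05 with the most variable or the specific probe set, by 0.875 with the median, by 0.645 after quantile normalization and by 1.02 without probe sets that held 0 on 3 or more arrays. LRP1 differed by -0.295, -0.091, -0.013 and -0.187 with the most variable probe set, the median, the specific probe set and without probe sets that held 0 on 3 or more arrays.

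Same-numbered arrays did not deviate together (r of -0.096, -0.069 and -0.04), so the numbers were not taken to pair them. Control replicate 1 correlated best with silenced replicate 2 (r = 0.373), control 2 with silenced 3 (0.381) and control 3 with silenced 1 (0.381). Those pairs were not used as a block. A block on equal replicate numbers gave 2065 changed genes and 3 members past the threshold, DAB2 no longer among them.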

Other observations

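Other ligands of VLDLR, LRP8 and LRP1 were past the threshold in 9 of 16 measured genes, 4 higher and 5 lower (limma, adjusted p under 0.05), with a list median of 0.033. That share, 56.2%, stands beside 13.3% of all genes. HSPG2 lost its call in 9 alternatives, SELENOP in 4 and APOB in 1, all named after their values were seen. PLAT, also in the list of reelin cleavage, lost its call in 1. The rest kept theirs in every alternative that could be run. A2M, the protease inhibitor alpha-2-macroglobulin that LRP1 clears from plasma, stood at -1.069, -0.912 and -0.996 in the controls and at 1.22, 1.129 and 1.154 in the silenced-labelled arrays. It was 4.47-fold higher (limma adjusted p = 3.6e-07), from 1 probe set. CCN2, a matricellular protein that binds LRP1, stood at 1.04, 1.07 and 1.122 against -0.107, -0.259 and -0.039, and was 2.32-fold lower (limma adjusted p = 1.2e-05), with all 3 probe sets past the threshold. LRP1 itself differed by -0.14.

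Of 17 clathrin endocytosis partners of DAB2, 2 were higher and 15 did not pass. PICALM, a clathrin assembly protein, rose by 0.37 (SE 0.054, limma adjusted p = 0.0022), with 5 of its 6 probe sets past the threshold. The other was AP2A2, a subunit of the clathrin adaptor AP-2, named after its value was seen, with a difference of 0.22. It did not pass when control replicate 1 or 3 was left out, nor without silenced replicate 1, 2 or 3 (0.20 to 0.25), nor with the median of its probe sets (0.244) or without _s_at and _x_at probe sets (0.158). Of 17 transcription factors and repressors described as acting on RELN or VLDLR, 1 changed and 16 did not pass. It was RORA, a nuclear receptor, which stood at -0.022, -0.02 and -0.028 in the controls and at -0.329, -0.615 and -0.747 in the silenced-labelled arrays, a difference of -0.54 (SE 0.097, limma adjusted p = 0.0062). Its controls were almost equal and the silenced-labelled arrays were widely spread. At an unadjusted p under 0.05 in limma, 4 of the 17 were higher and 3 lower, RORA among the latter. The groups of 10 of the 17 did not overlap, as for 29.3% of all genes.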
